A study of Mus musculus with 6 samples.

Results

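The genes described here are 10 genes of cholesterol handling by liver X receptors (LXRs) and PPARγ, taken by their symbol in the annotated expression table, and all 10 were among the 15903 genes tested. They are the receptor genes *Nr1h2*, *Nr1h3* and *Pparg*, the transporter and lipid transfer genes *Abca1*, *Abcg1*, *Apoe* and *Pltp*, the ubiquitin ligase gene *Mylip*, and the cholesterol ester genes *Soat1* and *Nceh1*. They were measured by RNA-sequencing in bone-marrow-derived macrophages (BMDMs), which are macrophages grown out of marrow in the presence of M-CSF, their growth factor (10 ng/ml, 7 days before treatment). The marrow came from 3 *Cx3cr1*GFP mice of the C57BL/6J strain, and BMDMs of each mouse were left unstimulated (control, n = 3) or given 62 mM excess NaCl for 24 h (NaCl, n = 3). All 6 libraries thus carry GFP in the *Cx3cr1* locus, all came from adherent cells, and no library of another osmotic agent was analysed here. The ages of the mice are not given in the sources used here.

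Macrophages take up cholesterol from lipoproteins and dead cells, and store the excess as cholesterol esters in lipid droplets. LXRs are nuclear receptors that bind oxysterols and, paired with RXR, switch on genes that move cholesterol out of the cell, while PPARγ, a receptor for fatty acid ligands, acts on lipid uptake and storage and raises LXRα. In macrophages this circuit is best known for its part in foam cells.

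The libraries held from 4088065 to 20123570 counts on genes, the lowest in NaCl replicate 3, in which 1235 of the tested genes had no count (79 to 309 in the other 5). Levels are given as CPM, a gene's counts relative to the total of its library after TMM scaling, as mean ± SD of 3 mice, and log2 fold changes with their standard error (SE). Differences were tested with edgeR's quasi-likelihood test of NaCl against control, adjusted by the Benjamini-Hochberg method over all 15903 genes with a threshold of 0.05. Since both libraries of a mouse come from the same animal, a second fit took the mouse as a replicate block. All 8 macrophage markers examined were present, with summed levels of 15305 to 16558 CPM in control and 23719 to 31340 CPM in NaCl, where *Lyz2* was higher past the threshold. The 5 adipocyte markers, among them *Adipoq* and *Plin1*, did not reach a total of 10 counts.

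The differences with NaCl were small across the 10 genes. In edgeR's test without the mouse, 0 of the 10 were past the threshold, where 0.654% of all genes were called (0.478% higher and 0.176% lower). Of the 10, 2 (*Soat1* and *Nceh1*) had an unadjusted p-value under 0.05 in that test, as had 12.6% of all genes, and DESeq2 called 0 where it called 2.52% of all genes (1.54% higher and 0.975% lower). With the mouse as a replicate block 2 of the 10 fell, *Abca1* and *Nceh1*, and 0 rose, where 8.9% of all genes were called and 4.3% were lower. The median log2 fold change of the 10 genes was -0.13 in both fits, beside -0.0065 over all genes without the block and -0.017 with it. For 3 genes (*Mylip*, *Soat1* and *Nceh1*) the 3 NaCl libraries did not overlap the 3 control libraries, which held for 19% of all genes, and 5 genes differed in 1 direction in 3 of 3 mice, as did 43.5% of all genes. With 10 genes, neither share is far from that of the whole table.

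**Figure D1:**
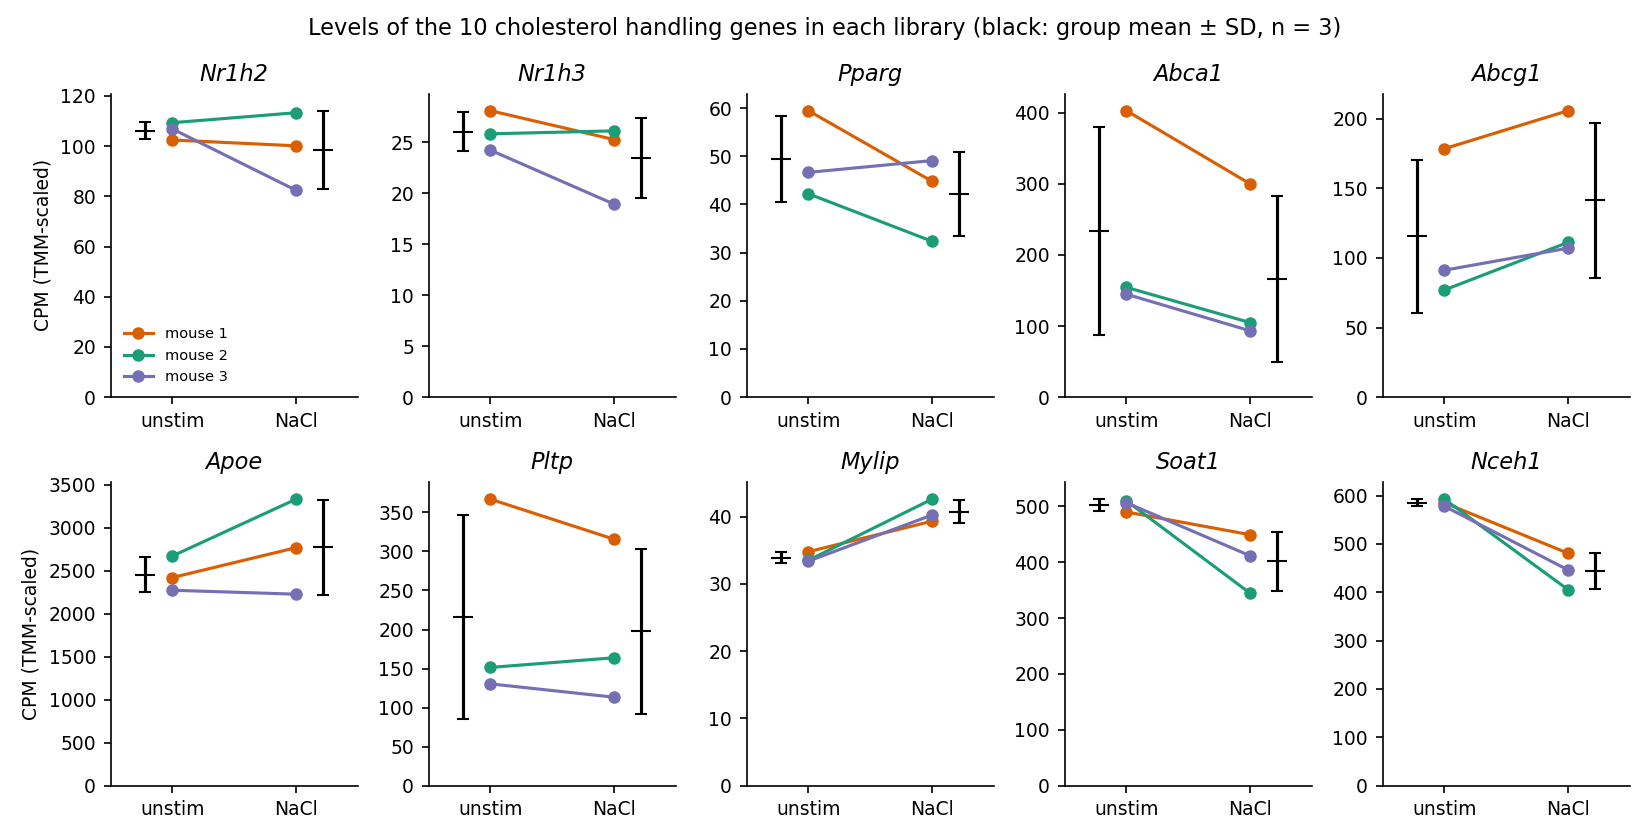
Level of each of the 10 genes in CPM (linear axes from 0) in the control (unstim) and NaCl library of each mouse, joined by a line, with the group mean ± SD in black (n = 3). *Abca1*, *Abcg1* and *Pltp* are highest in both libraries of mouse 1, while for *Mylip*, *Soat1* and *Nceh1* the NaCl points lie all above or all below the control points.

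*Abca1* and *Nceh1* are shown with the 250 bases before their start, since they were the genes called with the mouse in the fit. The sequences are RefSeq's for GRCm38.p6, written 5′ to 3′ on the strand of the gene, at chr4:53159896-53160145 (minus strand) for *Abca1* and at chr3:27182754-27183003 (plus strand) for *Nceh1*. Capitals mark the matches to the LXR element of the *Abca1* type, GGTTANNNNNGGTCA, and to the E-box CACGTG.
Abca1: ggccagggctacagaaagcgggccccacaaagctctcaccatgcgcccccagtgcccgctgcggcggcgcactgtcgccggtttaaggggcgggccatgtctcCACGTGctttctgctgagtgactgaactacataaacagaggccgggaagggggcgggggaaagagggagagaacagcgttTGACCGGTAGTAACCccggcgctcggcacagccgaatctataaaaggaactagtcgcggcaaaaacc
Nceh1: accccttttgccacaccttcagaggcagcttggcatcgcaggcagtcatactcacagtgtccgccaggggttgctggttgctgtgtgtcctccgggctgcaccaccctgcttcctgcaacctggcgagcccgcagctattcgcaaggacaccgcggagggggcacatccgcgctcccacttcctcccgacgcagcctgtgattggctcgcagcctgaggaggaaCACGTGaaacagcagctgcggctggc
The *Abca1* window held the first motif, read on the reverse strand as TGACCGGTAGTAACC from 67 to 53 bases before the start, and an E-box from 147 to 142 bases before it. The *Nceh1* window held an E-box from 26 to 21 bases before the start and no match to the LXR motif. Both strands were searched, and among 32851 RefSeq promoters of this length the *Abca1*-type motif stood in 15 (0.0457%) and the E-box in 1978 (6.02%). Since the first motif is modelled on *Abca1* itself, its match there was fixed in advance and is no test. The consensus LXR element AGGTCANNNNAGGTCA stood in 5 promoters (0.0152%) and the PPAR element AGGTCANAGGTCA in 11 (0.0335%), and in none of the 9 of the 10 genes that were matched. The half-site AGGTCA, which is part of both consensus elements, stood in 4607 promoters (14.02%), and among the 9 genes in those of *Pparg*, from 28 to 23 bases before the start in 1 window and from 9 to 4 in another. The promoter of *Abcg1* was not analysed here.

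No receptor gene was past the threshold in either fit. *Nr1h2* (ENSMUSG00000060601.14, chromosome 7), which encodes LXRβ, was at 102, 109 and 107 CPM in control mice 1, 2 and 3 and at 100, 113 and 82.4 CPM in their NaCl libraries. *Nr1h3* (ENSMUSG00000002108.11, chromosome 2), which encodes LXRα, was at 28.1, 25.8 and 24.2 CPM in control and at 25.3, 26.1 and 18.9 CPM in NaCl. For both genes the groups overlapped, and the lowest library was NaCl replicate 3, the library with the fewest counts. For *Nr1h2* the log2 fold change was -0.10 (SE 0.14, adjusted p = 0.816 by edgeR), and that of *Nr1h3* was -0.14 (SE 0.16, adjusted p = 0.784). With the block they were -0.11 (SE 0.12, adjusted p = 0.658 in edgeR) and -0.15 (SE 0.14, adjusted p = 0.595). Per kb of exon, *Nr1h2* was at 31.7 ± 1.04 CPM and *Nr1h3* at 10.4 ± 0.774 CPM in control, so that the LXRβ transcript exceeded the LXRα transcript in all 6 libraries, by 2.74-fold to 3.31-fold in control and 2.97-fold to 3.27-fold in NaCl. The log2 ratio of *Nr1h2* to *Nr1h3* differed by 0.045 between the groups (exact permutation test, two-sided, p = 0.7). That test leaves the pairing aside, and 3 against 3 libraries allow no p below 0.1. *Nr1h3* shares 1.35% of its exonic bases with *Gm13783* in GENCODE M21.

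*Pparg* (ENSMUSG00000000440.13, chromosome 6), the gene of PPARγ, was at 59.5, 42.2 and 46.7 CPM in control mice 1, 2 and 3 and at 44.8, 32.4 and 49.1 CPM in NaCl. It was lower in mice 1 and 2 and slightly higher in mouse 3, and the groups overlapped. Its log2 fold change was -0.24 (SE 0.19, adjusted p = 0.659 by edgeR) and -0.24 with the block (SE 0.13, adjusted p = 0.279 in edgeR). At 16.7 ± 3.03 CPM per kb in control, its level per length lay between those of the LXR genes.

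*Abca1* and *Abcg1*, the ATP-binding cassette transporters that load cholesterol onto apolipoprotein A-I and onto high-density lipoprotein particles, differed in opposite directions within every mouse. *Abca1* (ENSMUSG00000015243.5, chromosome 4) was at 403, 154 and 145 CPM in control mice 1, 2 and 3 and at 300.2, 105 and 93.4 CPM in NaCl. It was lower with NaCl in 3 of 3 mice, with log2 ratios of -0.42, -0.56 and -0.63. Mouse 1 stood far above the others in both conditions, so that the group means of 234 ± 146 and 166 ± 116 CPM overlapped widely. Without the mouse in the fit the log2 fold change was -0.49 (SE 0.49, adjusted p = 0.731 by edgeR, 0.872 from DESeq2). With the mouse as a replicate block *Abca1* fell by 0.54 on the log2 scale (SE 0.12, adjusted p = 0.00328 in edgeR), and DESeq2 with the block gave -0.52 (adjusted p = 0.00174). The call held in edgeR's blocked fit without mouse 1, 2 or 3, with log2 fold changes from -0.58 to -0.48. It held narrowly without mouse 1 (adjusted p = 0.0467 in that fit) and without mouse 3 (0.0404), and clearly without mouse 2 (2.5e-05). In the fit without the block, leaving out control replicate 1 turned the sign (0.16) and leaving out NaCl replicate 1 gave -1.23.

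*Abcg1* (ENSMUSG00000024030.8, chromosome 17) was at 179, 77.0 and 91.2 CPM in control mice 1, 2 and 3 and at 206, 111 and 107 CPM in NaCl. It was higher with NaCl in 3 of 3 mice, with log2 ratios of 0.21, 0.53 and 0.23, and again mouse 1 was highest in both conditions. *Abcg1* had a log2 fold change of 0.30 (SE 0.33, adjusted p = 0.763 by edgeR), and of 0.32 with the block (SE 0.12, adjusted p = 0.0922 in edgeR), which did not pass the threshold. Without NaCl replicate 1 the value of the unblocked fit was -0.075.

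The ratio of these transporters was computed after their values were seen, as 1 of 4 ratios between pairs of genes, and does not depend on library scaling. The log2 ratio of *Abcg1* to *Abca1* was -1.17, -1.004 and -0.67 in control mice 1, 2 and 3 and -0.54, 0.083 and 0.20 in NaCl. The 3 NaCl values were all above the 3 control values. The means were -0.95 ± 0.26 and -0.088 ± 0.40 (n = 3 each), a difference of 0.86, and within mice 1, 2 and 3 it was higher by 0.63, 1.09 and 0.86. The exact permutation test (two-sided) gave p = 0.1, the smallest that 3 against 3 allow, and 0.4 after Benjamini-Hochberg adjustment over the 4 ratios, so the difference does not pass the threshold. With each library left out in turn the difference lay between 0.72 and 1.09.

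**Figure D2:**
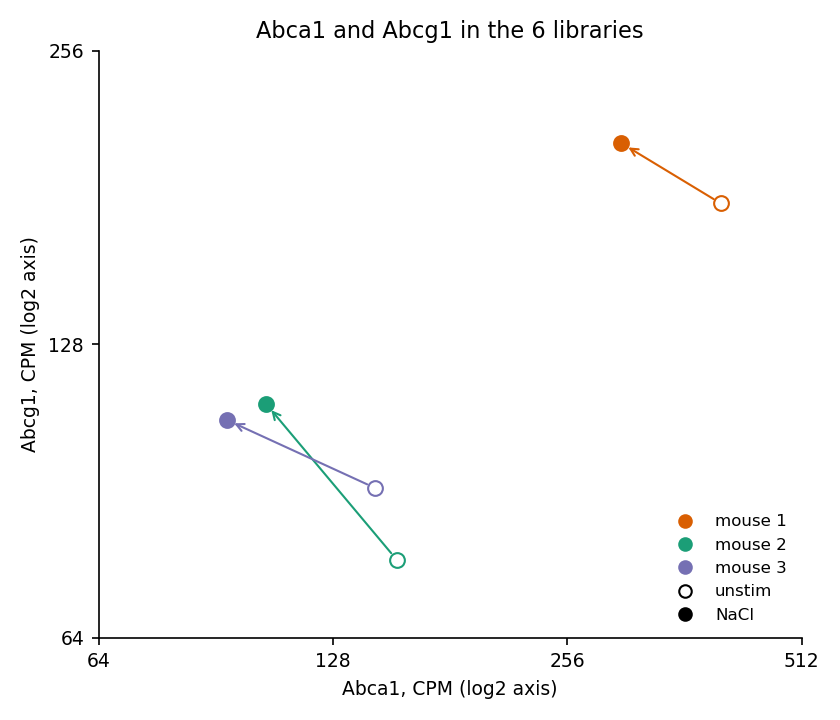
*Abcg1* against *Abca1* in the 6 libraries, in CPM on log2 axes, with an arrow from the control (open) to the NaCl library (filled) of each mouse. All 3 arrows point to lower *Abca1* and higher *Abcg1*, while mouse 1 lies at higher levels of both genes than mice 2 and 3 in either condition.

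*Apoe* and *Pltp* encode secreted proteins of lipid transport, apolipoprotein E and the phospholipid transfer protein. *Apoe* (ENSMUSG00000002985.17, chromosome 7) was at 2423, 2674 and 2275 CPM in control mice 1, 2 and 3 and at 2770, 3335 and 2229 CPM in NaCl. It was higher in mice 1 and 2 and close to level in mouse 3, and the groups overlapped. For *Apoe* the log2 fold change was 0.18 (SE 0.17, adjusted p = 0.712 by edgeR) and with the block 0.16 (SE 0.12, adjusted p = 0.485 in edgeR). Per kb of exon it was the most abundant of the 10 genes in both groups, with 1149 ± 94.3 CPM per kb (control) and 1299 ± 259 CPM per kb (NaCl). *Nceh1* followed at 111 ± 1.39 and 84.6 ± 7.18 CPM per kb and *Pltp* at 84.4 ± 51.1 and 77.1 ± 41.1 CPM per kb, and the control levels of these neighbours in the order differed by less than the spread of *Pltp*.

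*Pltp* (ENSMUSG00000017754.14, chromosome 2) was at 367, 151 and 130 CPM in control mice 1, 2 and 3 and at 316, 164 and 113 CPM in NaCl. As for *Abca1* and *Abcg1*, mouse 1 was far above the others in both conditions, whereas the direction with NaCl differed between the mice (log2 ratios of -0.22, 0.11 and -0.20). For *Pltp* the log2 fold change was -0.12 (SE 0.43, adjusted p = 0.940 by edgeR) and with the block -0.10 (SE 0.12, adjusted p = 0.691 in edgeR). Its exons share 19.3% of their bases with *Ctsa* on the opposite strand in GENCODE M21, and the libraries kept no strand information. Reads from those bases cannot be told apart between these genes.

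*Mylip* (ENSMUSG00000038175.11, chromosome 13) encodes a ubiquitin ligase whose gene LXR switches on. It was at 34.8, 33.5 and 33.4 CPM in control mice 1, 2 and 3 and at 39.3, 42.6 and 40.2 CPM in NaCl. All NaCl values lay above all control values, as for 8.92% of all genes. Its log2 fold change was 0.27 without the block (SE 0.13, adjusted p = 0.424 by edgeR) and 0.27 with it (SE 0.13, adjusted p = 0.216), and the difference passed in neither fit.

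*Soat1* and *Nceh1* act in opposite directions on the cholesterol ester store. *Soat1* (ENSMUSG00000026600.13, chromosome 1) encodes the enzyme that esterifies cholesterol, and was at 490, 510 and 506 CPM in control mice 1, 2 and 3 and at 449, 345 and 412 CPM in NaCl. All 3 NaCl values lay below all control values, as for 10.1% of all genes. The change of *Soat1* on the log2 scale was -0.32 (SE 0.13, adjusted p = 0.361 by edgeR), and with the block -0.33 (SE 0.12, adjusted p = 0.0874 in edgeR), past the threshold in neither.

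*Nceh1* (ENSMUSG00000027698.15, chromosome 3) encodes a neutral cholesterol ester hydrolase, and was at 585, 593 and 578 CPM in control mice 1, 2 and 3 and at 481, 406 and 446 CPM in NaCl. Its 3 NaCl values also lay below all control values, and the control values of the 3 mice lay close together. Without the block its log2 fold change was -0.40 (SE 0.12, adjusted p = 0.214 by edgeR, 0.0963 by DESeq2). With the block *Nceh1* fell by 0.40 on the log2 scale (SE 0.12, adjusted p = 0.0284 in edgeR), and DESeq2 with the block gave -0.39 (adjusted p = 0.0256). The call was lost in the blocked fit without mouse 1 (-0.45, adjusted p = 0.207 in edgeR) and without mouse 3 (-0.41, adjusted p = 0.114), and held without mouse 2 (-0.32, adjusted p = 0.0170). The log2 ratio of *Soat1* to *Nceh1* differed by 0.071 between the groups (exact permutation test, p = 0.3, the smallest possible being 0.1). That test leaves the pairing aside.

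**Figure D3:**
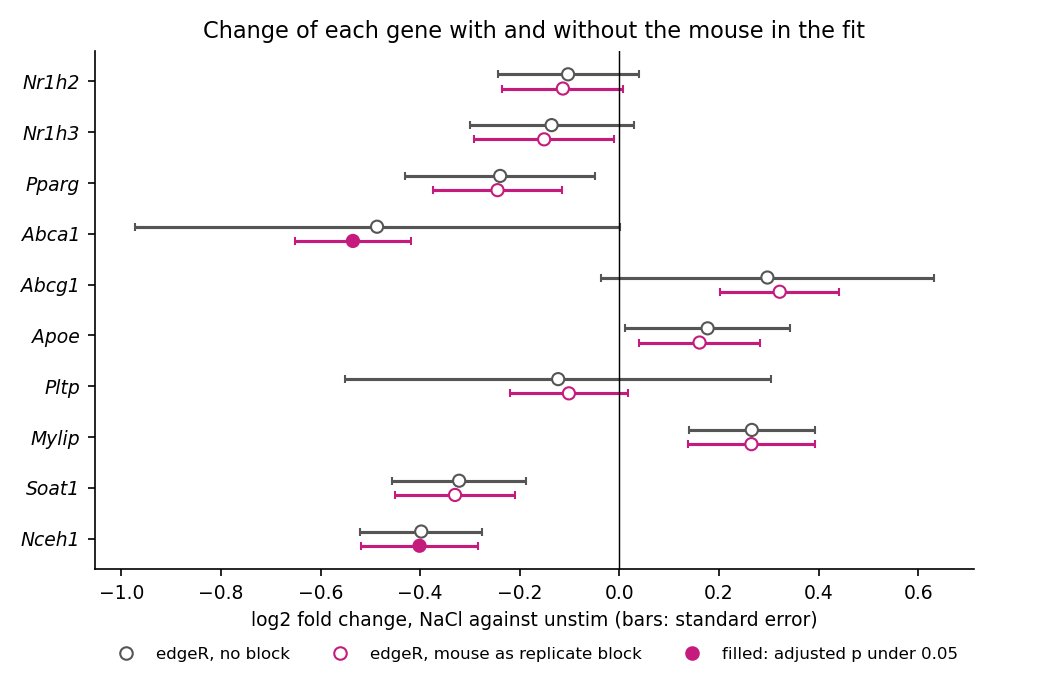
Log2 fold change of each gene, NaCl against control, with its standard error, from edgeR without (grey) and with (pink) the mouse as a replicate block, filled where the adjusted p is under 0.05. The values hardly differ between the fits, while the bars of *Abca1*, *Abcg1* and *Pltp* shorten from 0.49, 0.33 and 0.43 to 0.12 each, and the filled points are *Abca1* and *Nceh1*.

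The mouse term of the blocked fit, examined after the values were seen, was past the threshold for 3 of the 10 genes, *Abca1*, *Abcg1* and *Pltp*, and for 8.89% of all genes. This term tests for any difference among the 3 mice. The log2 differences given here, of mouse 1 from the mean of mice 2 and 3, were not tested by themselves. Mouse 1 exceeded the mean of mice 2 and 3 by 2.85-fold for *Abca1* (log2 difference 1.51, adjusted p = 6e-09 from edgeR's test of the mouse), by 2.00-fold for *Abcg1* (1.00, adjusted p = 9.4e-06) and by 2.45-fold for *Pltp* (1.30, adjusted p = 9.5e-08). Both libraries of mouse 1 were above the other 4 for these 3 genes, as for 13.8% of all genes. For the other 7 the adjusted p of the mouse term lay between 0.111 for *Pparg* and 0.983 for *Mylip*. Among these, *Nr1h2* and *Nr1h3* had log2 differences of -0.022 and 0.16, and *Apoe* and *Mylip* of -0.0039 and -0.0095. *Cyp27a1*, which makes the LXR ligand 27-hydroxycholesterol, was also higher in mouse 1 (log2 difference 1.28, adjusted p = 6.3e-06 for edgeR's mouse term). *Ch25h*, which makes 25-hydroxycholesterol, was instead lower there at low counts (-2.56, adjusted p = 0.0027 for that term). Whether these enzymes have a part in the levels of mouse 1 was not tested. Of 11 further LXR targets tested, the mouse term was past the threshold for 4. Mouse 1 was higher for *Mertk* (0.62) and *Scd2* (0.58) and lower for *Fasn* (-0.62). For *Cd5l* (0.22), mouse 3 was lowest in both conditions (264 CPM in control, 136 CPM in NaCl). In NaCl, mouse 1 (182 CPM) lay below mouse 2 (201 CPM) for that gene. Among the marker lists of other cell types, *Ccr2* of the monocyte markers was higher in mouse 1 by 1.63 and *Fn1* of the same list lower by 1.19 on the log2 scale, and the neutrophil markers *S100a8* and *S100a9* were lower by 0.69 and 0.82. In NaCl, however, *S100a8* was at 50.7 CPM in mouse 1 and 50.3 CPM in mouse 3. The mouse term was also past the threshold for the neutrophil marker *Ngp*, lower in mouse 1 (-0.55), and the B cell marker *Cd79b*, higher there (1.20). *Ngp* was at 60.7, 147 and 104 CPM in control mice 1, 2 and 3, but at similar levels of 63.9, 69.3 and 67.6 CPM in NaCl. The stromal marker *Col1a2* passed the threshold of the mouse term at low counts, with mouse 3 standing apart. Its counts were 5, 4 and 44 in control mice 1, 2 and 3 and 0, 1 and 9 in NaCl. The summed level of the 5 monocyte markers was 180 to 266 CPM in control and 204 to 321 CPM in NaCl, and that of the 6 neutrophil markers 184 to 414 and 196 to 312 CPM. The part of these cells in the results was not tested, and the mouse, its culture and its library handling cannot be told apart. In bulk RNA, fewer cells of a type and less RNA per cell cannot be told apart either.

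Around the 10 genes, 97 further genes of lipid handling in 9 lists were examined, of which 84 were tested. Without the block 2 of the 84 rose, *Cxcl16* and *Abca7*, and 0 fell, beside 0.478% and 0.176% of all genes. In that test 22 had an unadjusted p-value under 0.05 in edgeR (12.6% of all genes had). DESeq2 gave 3 higher and 5 lower, beside 1.54% and 0.975% of all genes. With the block 9 rose and 11 fell, beside 4.6% and 4.3% of all genes, and the median log2 fold change was -0.00037 without and -0.0028 with the block. The mouse term was past the threshold for 17 of the 84, and for 8.89% of all genes.

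Among 9 LXR partners and cofactors, 1 rose with the block, the coactivator gene *Ncoa3* (207 ± 23.2 to 284 ± 13.0 CPM, log2 fold change 0.46, adjusted p = 0.012 in edgeR with the block). *Rxra*, the partner of LXR and PPARγ, had levels of 95.3 ± 5.27 CPM (control) and 77.7 ± 8.27 CPM (NaCl) (adjusted p = 0.129 with the block). Of 11 further LXR targets tested, 2 rose and 3 fell with the block, beside 4.6% and 4.3% of all genes. Without it edgeR called 0 and DESeq2 called 1 higher (*Arl4c*) and 2 lower (*Cd5l* and *Mertk*). The rises were those of *Arl4c*, a small GTPase (123 ± 5.41 to 186 ± 24.2 CPM, 0.58), and *Fasn*, fatty acid synthase (93.8 ± 14.2 to 140 ± 47.3 CPM, 0.54). The falls were those of *Cd5l*, a secreted scavenger receptor-like protein (329 ± 57.7 to 173 ± 33.1 CPM, -0.93), the apoptotic cell receptor *Mertk* (-1.01) and lipoprotein lipase *Lpl* (10267 ± 1303 to 7628 ± 1381 CPM, -0.44). *Srebf1*, the LXR target that drives fatty acid synthesis, was at 89.6 ± 5.67 and 104 ± 23.6 CPM (adjusted p = 0.364 with the block). Targets of LXR thus lay on both sides of 0, and the median of the list with the block was 0.049.

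Among 10 PPARγ targets tested, 2 fell with the block and 0 rose, beside 4.3% and 4.6% of all genes. The list median was -0.12. The falls were those of *Cd36*, a receptor for oxidised lipoproteins (log2 fold change -0.82 with the block), and *Fabp4*, a fatty acid carrier (69.5 ± 9.62 to 47.2 ± 7.86 CPM, -0.55). *Plin2*, the coat protein of lipid droplets, had levels of 1265 ± 246 CPM (control) and 1080 ± 344 CPM (NaCl) (adjusted p = 0.246 with the block). The 11 lipoprotein uptake receptors had a list median of -0.53 with the block, with 4 lower (*Cd36*, *Msr1*, *Marco* and *Stab1*) and 1 higher. *Msr1*, the class A scavenger receptor, had a log2 fold change of -0.72. Its relative *Marco* had one of -1.37 at low levels (4.40 ± 1.39 to 1.77 ± 0.545 CPM). DESeq2 with the block did not call *Marco* (adjusted p = 0.0715). *Cxcl16*, a chemokine that also binds oxidised lipoproteins, rose past the threshold in both fits (1.53 without and 1.56 with the block). Without the block it lost its call when control or NaCl replicate 2 or 3 was left out (adjusted p up to 0.223 by edgeR). *Scarb1*, a receptor for high-density lipoprotein, was at 114 ± 14.8 and 121 ± 20.8 CPM (adjusted p = 0.879 by edgeR).

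Between uptake and efflux, 1 of 13 transport genes and 3 of 7 ester genes were called with the block, where 8.9% of all genes were. Of 13 genes of lysosomal and intracellular cholesterol transport, 1 fell with the block, *Osbpl8* (883 ± 60.9 to 621 ± 126 CPM, -0.53), whose product binds sterols and phosphatidylserine at membrane contacts. The lysosomal lipase gene *Lipa* (2483 ± 142 and 2437 ± 265 CPM) and the lysosomal cholesterol exporter gene *Npc1* (292 ± 18.9 and 252 ± 22.6 CPM) were not called in either fit. Of 7 ester storage and hydrolysis genes tested, *Cav1* and *Lipe* rose with the block (0.91 and 0.52) and *Soat2* fell. *Lipe* passed narrowly (adjusted p = 0.0466 in edgeR with the block) and was not called by DESeq2 with the block (adjusted p = 0.178). *Soat2*, the second esterifying enzyme, was at 4.89, 6.88 and 6.51 CPM in control and at 0.894, 1.63 and 0 CPM in NaCl (log2 fold change -2.59, adjusted p = 1.4e-05 in edgeR with the block, 0.0514 without).

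Among 8 other lipid efflux transporters and acceptors tested, *Abca7* was the 1 called. Of all genes, 0.654% were called without the block and 8.9% with it. *Abca7*, a close relative of *Abca1*, was at 95.7, 82.8 and 85.2 CPM in control mice 1, 2 and 3 and at 146, 148 and 135 CPM in NaCl, where all NaCl values were above all control values. Its log2 fold change was 0.70 (SE 0.12, adjusted p = 0.0434 by edgeR, 2e-04 with the block). Without the block it lost its call when any 1 library was left out (log2 fold change 0.67 to 0.77, adjusted p from 0.0562 to 0.33). The log2 ratio of *Abca7* to *Abca1* was higher by 1.03, 1.39 and 1.30 with NaCl within mice 1, 2 and 3. Over the groups, which overlapped, it differed by 1.24 (exact permutation test that leaves the pairing aside, p = 0.3).

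Of 4 oxysterol enzyme genes tested, *Ch25h*, which makes the LXR ligand 25-hydroxycholesterol, rose with the block (log2 fold change 2.15, adjusted p = 4.9e-04 in edgeR). It was at 0, 1.09 and 1.56 CPM in control mice 1, 2 and 3 and at 1.23, 6.89 and 3.83 CPM in NaCl, so this value rests on few reads. *Cyp27a1* was at 23.4 ± 14.6 and 27.7 ± 14.7 CPM (adjusted p = 0.274 with the block). Of 15 genes of the SREBP2 pathway, which senses low cholesterol and drives its synthesis, 1 rose and 1 fell with the block. The sterol sensor *Scap* rose (0.49) and the synthesis enzyme *Hmgcs1* fell (-0.43, adjusted p = 0.0401 in edgeR). DESeq2 with the block did not call *Hmgcs1* (adjusted p = 0.149). Over all genes, 4.6% rose and 4.3% fell with the block in edgeR. *Srebf2* itself was at 173 ± 10.7 and 176 ± 31.2 CPM (adjusted p = 0.972 by edgeR).

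**Figure D4:**
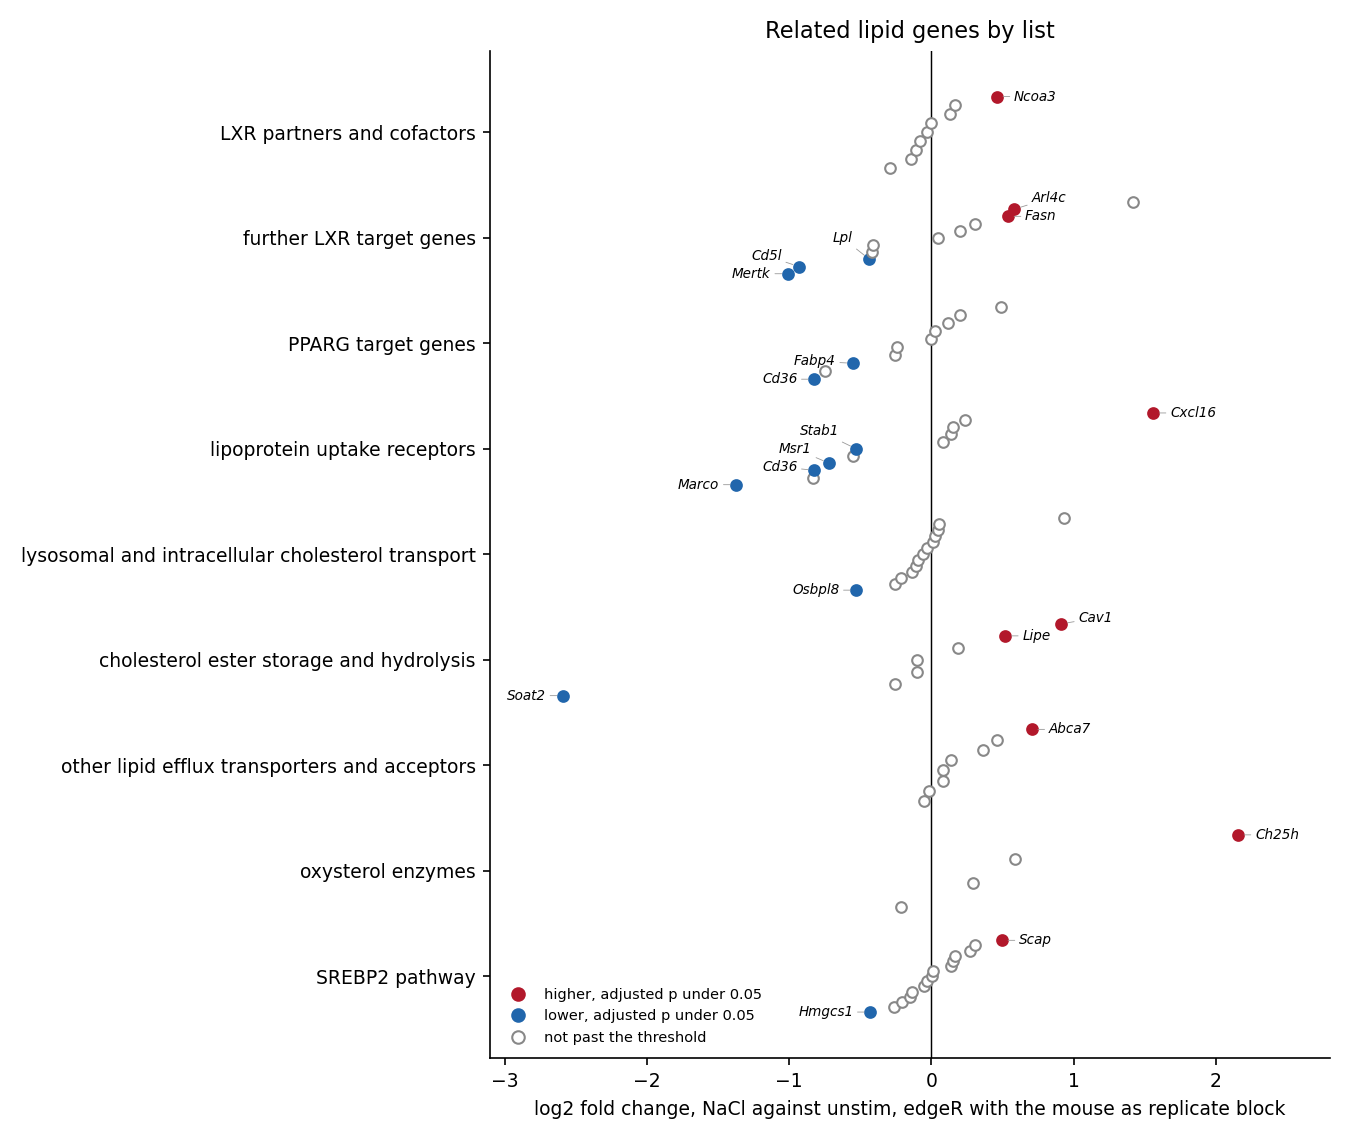
Log2 fold change (NaCl against control, edgeR with the mouse as replicate block) of the tested genes of the 9 related lists, 1 point per gene and list, coloured and named where the adjusted p is under 0.05. Coloured points lie on both sides of 0, with 4 of the 11 uptake receptors lower, and the lowest point, *Soat2*, includes a NaCl library with 0 counts.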

How the data were processed

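RNA was measured in BMDMs of 3 mice, each as control and NaCl, in 6 libraries. According to the methods, polyadenylated RNA was sequenced unstranded as 75 bp single-end reads, and the submitters' processing notes name CASAVA 1.8.2, fastp 0.20.0, STAR 2.7.10b, SAMtools 1.16.1, R 4.3.1 and DESeq2 1.40.2. The authors deposited read counts per gene as STAR gave them, and a normalized signal made by dividing the counts by DESeq2's size factors. The deposited signal equalled the counts over recomputed size factors within a relative deviation of 1e-12 and covers the 15903 genes whose counts sum to 10 or more. All tests here used the counts. The methods pair mm10 with GENCODE vM32, an annotation of a later build, and genes are therefore located by chromosome only. Symbols are those of the deposited table. Exon lengths, overlaps and shared 75-base windows came from GENCODE M21.

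The main test was edgeR 4.0.16 in R 4.3.3 (TMM, glmQLFit, glmQLFTest), without a mouse term, as the methods name none. The standard error is the log2 fold change over the square root of F. The alternatives were the mouse as a replicate block, DESeq2 1.42.0 with and without it, limma-voom (limma 3.58.1), scaling by median ratios or by total counts, a filter at 1 count in all, filterByExpr, and leaving out each library. Leaving out each mouse, the mouse term and the ratios were added after the data were seen. Same-numbered libraries come from the same mouse by the labels, and their deviations from the group means correlated across genes at 0.43, 0.15 and 0.22, against -0.35 to 0.12 for other pairs. The 10 genes, the related lists, the marker lists and the rule for named genes were chosen with earlier results of these data known. The rule names all 10 genes, up to 4 genes per related list with the lowest adjusted p under 0.05 with the block, and 14 genes whatever their values, of which 1 is not reported here. *Stab1*, *Scd2*, *Ctsa* and the markers were named after their values were seen. The scripts were tested on simulated data.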

Additional observations from a re-analysis of the deposited data

How the results depend on the processing

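Without the block, 0 of the 10 genes were higher and 0 lower in the main test and with DESeq2, limma-voom, either scaling, either filter, and each library or mouse left out. The number lower was 2 with the replicate block, by edgeR as by DESeq2, and 1, 2 and 1 with the block without mouse 1, 2 and 3. Of the related genes, 2 were higher and 0 lower, against 9 and 11 with the replicate block, 8 and 9 in DESeq2 with the block, 7 and 7, 9 and 11, and 8 and 8 with the block without mouse 1, 2 and 3, and 6 and 9 with a minimum total count of 1. DESeq2 gave 5 lower, total count scaling 1 higher, and the fits without mouse 1, 2 and 3 gave 1, 0 and 0 higher, with 1 lower without mouse 1. Leaving out 1 library gave from 0 to 1 higher (1 without control or NaCl replicate 1, 0 without the other 4) and from 0 to 1 lower (1 without NaCl replicate 1). The genes that differed among mice numbered 3, and 3 to 5 with 1 library left out (5 without control replicate 2, 4 without control replicate 3).

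Values that changed sign passed no threshold. With 1 library left out the log2 fold change ranged from -1.23 to 0.16 for *Abca1*, -0.075 to 0.76 for *Abcg1*, -0.21 to 0.0079 for *Nr1h2*, -0.63 to 0.50 for *Pltp*, -0.13 to 0.11 for *Srebf2*, -0.12 to 0.025 for *Lipa*, -0.19 to 0.92 for *Cyp27a1* and -0.051 to 0.20 for *Scarb1*. With and without the block, *Nr1h2* gave 0.018 and 0.020 without mouse 3, and without mouse 2 *Srebf2* gave -0.10 and -0.10 and *Lipa* 0.024 and 0.028. The cause of these differences was not tested. The replicate block changed no call of the 10 genes other than *Abca1* and *Nceh1*. Over 20 settings each, the 10 genes kept direction and side of the threshold in 184 of the values, passed the threshold newly in 8 and changed sign in 8. The 4088065 counts of NaCl replicate 3 limit the precision of low genes, and 3 mice limit every test.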

Other observations

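The marker lists of other cell types held few changes. With the mouse as a replicate block, *Csf1r* and *Lyz2* of the macrophage list and *Fn1* of the monocyte list were higher in NaCl and the neutrophil gene *Ngp* was lower, past the threshold in edgeR, and 0 of the 6 dendritic cell markers were called. The summed level of the dendritic cell markers was 3.68 to 4.78 CPM in control and 2.45 to 3.24 CPM in NaCl. That of the B cell markers *Cd79a* and *Cd79b* was 5.25 to 9.66 and 2.90 to 10.4 CPM, and that of the 3 stromal markers tested was 0.906 to 4.34 and 0.447 to 3.59 CPM. *Ms4a1*, *Col3a1*, *Dcn* and the 5 erythroid markers did not reach a total of 10 counts. Their part in the results was not tested.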
